A study of Drosophila melanogaster with 2 samples.

Results

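The Dpp pathway and the genes that pattern the dorsoventral axis were examined in a ChIP-seq map of the Odd skipped (Odd) protein in the Drosophila melanogaster embryo. The 10 genes were dpp, scw, sog, tld, tkv, Mad, Med, shn, brk and zen, taken by symbol from the Ensembl annotation, where they are 10 of 13945 protein-coding genes on the 6 chromosomes with peaks. For each gene, peaks were read by their summit, the position of the strongest signal in the peak, in the gene span and the 5 kb to each side, called the territory here. Of the 10 genes, 7 had at least 1 summit of the reproducible peak list in their territory, 30 summits in all, and scw, tld and zen had none.

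Odd is a zinc-finger transcription factor of the pair-rule class, and was recovered through a GFP tag with an antibody against GFP, although 1 label field names Odd itself as the antibody target. The embryos came from a transgenic line, strain odd-GFP, that stably expressed Odd with GFP fused to its C terminus. Whole embryos of mixed sex aged 0 to 16 h formed 1 group of 2 biological replicates, with chromatin sonicated to 200 to 800 bp, and no second condition was analysed. Whole embryos pool all tissues and stages of that window, so a summit does not say in which cells the protein was bound. Whether the line also carried an untagged odd gene is not stated in the labels.

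In the early embryo Dpp, a ligand of the bone morphogenetic protein (BMP) family, acts as a morphogen that specifies dorsal fates, together with the second ligand Scw. Sog binds the ligands and blocks them laterally, and the metalloprotease Tld cleaves Sog. The type I receptor Tkv phosphorylates the Smad protein Mad, which enters the nucleus with the common Smad Med. With the zinc-finger cofactor Shn these Smads silence brk, which encodes a repressor of Dpp target genes, while zen, a homeobox gene of the dorsal side, is activated.

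Sequences at summits of dpp, sog, tkv, Mad, Med and brk are shown first, because the values below describe these sites. Each is the plus strand of the dm6 build, read from the RefSeq Release 6 genome, in lower case and 5′ to 3′. Capitals mark matches on either strand to short words searched for, which are the word GGCGCC that both Mad and Brk can bind, the longer Brk word CTGGCGNC, the Zelda core CAGGTA and the word GAGAG of GAGA factor. Intron and upstream windows run 100 bp to each side of the summit, and the 2 promoter windows are the longest stretch free of exons within 150 bp of it. The summit in the Med territory, at chr3R:31616156, lies just outside the stretch shown for it.
dpp intron, rank 1124, chr2L:2433547-2433747: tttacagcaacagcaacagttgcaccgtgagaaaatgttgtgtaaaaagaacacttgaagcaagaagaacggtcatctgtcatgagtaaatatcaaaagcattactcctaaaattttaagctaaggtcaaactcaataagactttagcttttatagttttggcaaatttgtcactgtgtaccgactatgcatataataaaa
sog intron, rank 1882, chrX:15619395-15619595: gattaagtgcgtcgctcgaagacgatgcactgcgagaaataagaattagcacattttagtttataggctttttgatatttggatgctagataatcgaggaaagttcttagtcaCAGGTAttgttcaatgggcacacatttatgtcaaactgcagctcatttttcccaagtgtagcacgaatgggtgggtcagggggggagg
tkv intron, rank 2306, chr2L:5233531-5233731: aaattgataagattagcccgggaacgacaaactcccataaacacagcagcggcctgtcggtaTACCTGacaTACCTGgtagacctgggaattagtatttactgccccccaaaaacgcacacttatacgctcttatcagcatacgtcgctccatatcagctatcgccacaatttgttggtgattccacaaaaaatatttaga
tkv promoter, rank 3726, chr2L:5237363-5237517: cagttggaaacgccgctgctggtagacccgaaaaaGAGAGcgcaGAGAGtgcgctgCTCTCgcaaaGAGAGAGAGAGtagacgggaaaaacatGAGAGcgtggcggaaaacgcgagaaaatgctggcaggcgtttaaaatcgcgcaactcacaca
Mad intron, rank 642, chr2L:3153294-3153494: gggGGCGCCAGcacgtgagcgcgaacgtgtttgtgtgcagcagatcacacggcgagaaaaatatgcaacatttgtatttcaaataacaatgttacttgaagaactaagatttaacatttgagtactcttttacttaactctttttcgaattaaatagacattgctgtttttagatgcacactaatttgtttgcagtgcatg
Mad intron, rank 3095, chr2L:3158696-3158896: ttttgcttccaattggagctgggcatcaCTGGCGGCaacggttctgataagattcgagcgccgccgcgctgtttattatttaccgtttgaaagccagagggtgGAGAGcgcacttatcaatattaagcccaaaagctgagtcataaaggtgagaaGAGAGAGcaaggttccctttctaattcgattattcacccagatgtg
Med territory, between the genes Mnat9 and CG1792, rank 258, chr3R:31616161-31616302: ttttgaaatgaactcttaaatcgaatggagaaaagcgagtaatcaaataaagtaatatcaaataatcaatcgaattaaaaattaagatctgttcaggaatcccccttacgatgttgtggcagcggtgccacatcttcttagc
brk upstream, rank 219, chrX:7307064-7307264: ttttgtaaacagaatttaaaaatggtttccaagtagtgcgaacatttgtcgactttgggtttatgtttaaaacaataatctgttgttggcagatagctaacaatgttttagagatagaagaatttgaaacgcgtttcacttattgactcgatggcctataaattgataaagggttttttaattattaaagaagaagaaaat
brk upstream, rank 392, chrX:7307264-7307464: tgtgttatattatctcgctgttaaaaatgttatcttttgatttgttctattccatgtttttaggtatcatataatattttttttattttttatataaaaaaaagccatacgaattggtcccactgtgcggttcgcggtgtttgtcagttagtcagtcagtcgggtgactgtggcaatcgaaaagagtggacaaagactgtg

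Rank here is the place of a peak in the reproducible list, filtered by irreproducible discovery rate (IDR), a measure of how well peaks repeat between replicates, with rank 1 for the highest signal. That list held 4291 peaks, with signal values between 144 and 2892 and a median of 219. Signal is the peak caller's own score per peak, as the authors deposited it. How that score depends on depth is not known here, so signals of the pool and of each replicate are given as descriptions and lists are compared by rank. Each replicate and the pool of both also had a relaxed list of 30000 peaks that includes background. The lists hold peaks and not reads, so the depth of each replicate is unknown.

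**Figure D1:**
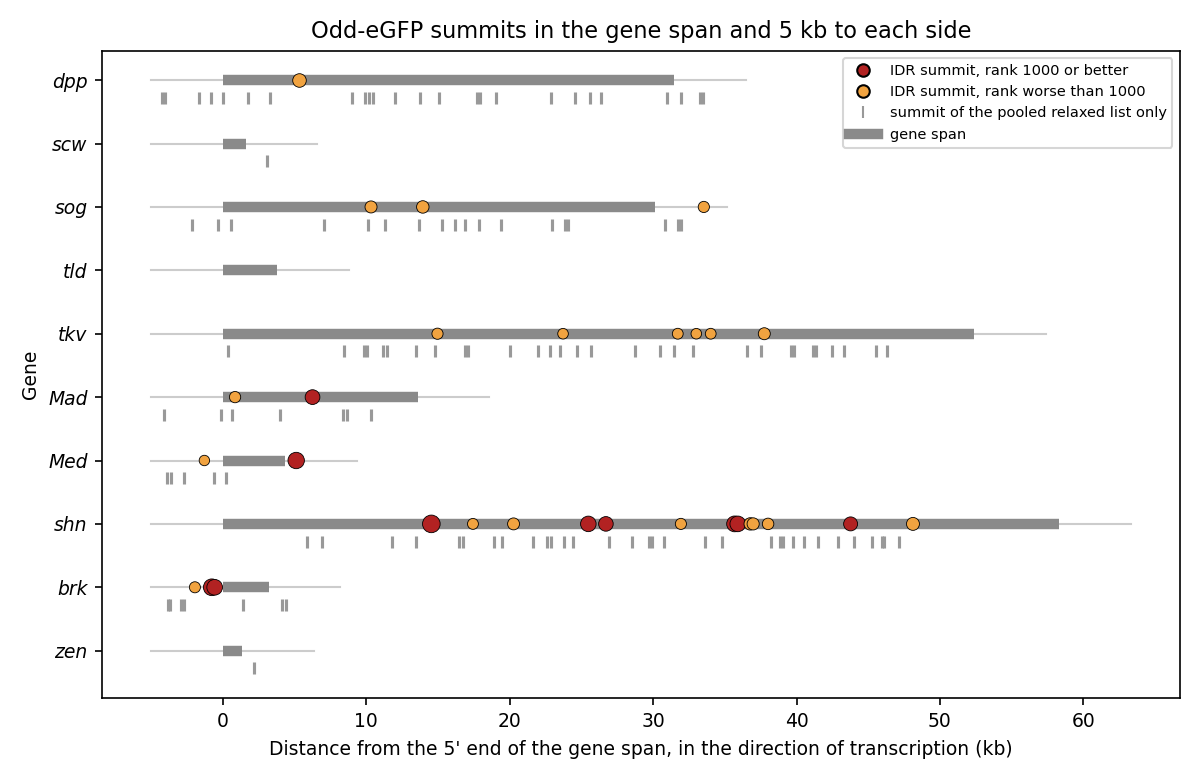
Position of summits along the territories of the 10 genes, in kb from the 5' end of the gene span; grey bars are gene spans, circles are IDR summits (red at rank 1000 or better, orange otherwise, and larger for a better rank) and ticks are summits of the pooled relaxed list only. Of the 13 IDR summits of shn, 12 are spread through its introns, those of brk lie before the gene, and scw, tld and zen have no circle.

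The 7 of 10 genes with an IDR summit stood beside 39.8% of all protein-coding genes. The share among all genes grew with length. Of the 5 genes with a span under 5 kb (scw, tld, zen, brk and Med), 2 had an IDR summit, beside 34.3% of protein-coding genes of that size. Of the 5 genes with a span of 10 kb or more (dpp, sog, tkv, Mad and shn), all 5 had one, beside 62.3%. When only the protein-coding gene with the nearest transcription start site (TSS), at most 5 kb away, could claim a summit, 5 of the 10 genes kept one, namely sog, tkv, Mad, shn and brk, beside 16.6%. With 1 group and no second condition, no test between samples exists, and these counts are descriptions.

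The ligand genes differed, with 1 IDR summit at dpp and none at the much shorter scw. At least 1 was found for 62.3% of protein-coding genes of 10 kb or more and for 34.3% of those under 5 kb. The gene dpp (chr2L:2428372-2459823, plus strand) had 1 IDR summit, in an intron 5275 bp downstream of its nearest own TSS, with the peak at chr2L:2433515-2433765. Its signal was 318.5 in the pool, rank 1124. The nearest summit of replicate 1 lay 7 bp away with a signal of 159.0, rank 1260, and that of replicate 2 lay 35 bp away with a signal of 164.8, rank 1050. The replicates thus placed this site close together in rank and in position. The pooled relaxed list held 26 summits in the territory of dpp, and the second best ranked 6366, outside the IDR list, so a single site stood apart from the rest of the locus.

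The gene scw (chr2L:19699379-19700968, minus strand) had no IDR summit, and the nearest one lay 57781 bp from its span, closest to the TSS of Dus3. The pooled relaxed list held 1 summit there, with a signal of 62.4 and rank 14478. Its strongest summit ranked 24018 in replicate 1 and 16857 in replicate 2, both far below the number of IDR peaks.

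Sog and Tld, the antagonist of the ligands and the protease that cleaves it, differed, with sites at sog and none at tld. The gene sog (chrX:15603283-15633434, minus strand) had 3 IDR summits, of which 2 lay in its introns, 7045 and 3435 bp downstream of the nearest own TSS. The stronger had a signal of 237.1 in the pool, rank 1882, with 130.7 in replicate 1 (rank 1737) and 105.5 in replicate 2 (rank 2409). The second, rank 2272, ranked 2130 in replicate 1 and 3079 in replicate 2. The third, rank 3180, was intergenic and lay closest to the TSS of Chsy, 6364 bp away. Replicate 1 ranked it 2949 and replicate 2 ranked it 5163, outside its strongest 4291 peaks. All 3 sites had a better rank in replicate 1.

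The gene tld (chr3R:24749731-24753510, plus strand) had no summit in the IDR list, in the pooled relaxed list or in the relaxed list of either replicate. It was the only one of the 10 genes without a peak in any of the 4 lists, and the nearest IDR summit lay 15503 bp from its span. Its neighbour tok, which encodes a related protease and lies in the same territory, likewise had no IDR summit.

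The receptor gene tkv (chr2L:5219000-5271384, minus strand) had many sites of low rank. Its 6 IDR summits all fell in the weaker part of the list, between ranks 2306 and 4022, and stretched over 22789 bp. The strongest, 3731 bp downstream of an own TSS, had a signal of 211.4 in the pool, 103.4 in replicate 1 (rank 2692) and 109.6 in replicate 2 (rank 2253). Of the 6, 5 lay in introns and 1 lay 5 bp from a TSS of tkv. That promoter summit had a signal of 157.7 in the pool, rank 3726, and the replicates differed on it, with rank 8620 in replicate 1 and rank 2360 in replicate 2.

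The territory of tkv held 4 summits among the strongest 4291 peaks of replicate 1 and 9 among those of replicate 2. Of all protein-coding genes, 123 had 6 or more IDR summits, and of the 132 with a span between 50 and 70 kb, 18 had as many. The territory also holds 7 other protein-coding genes, among them 3 Cyp4ac genes, and the summit of rank 3211 lay closer to the TSS of Cyp4ac1 than to one of tkv.

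The Smad genes each had a site of good rank in the territory, but in the case of Med the sites lay at the promoters of neighbours. The gene Mad (chr2L:3146056-3159643, minus strand) had 2 IDR summits, both in introns. The stronger lay 641 bp upstream of an internal TSS and had a signal of 436.6 in the pool, rank 642, with 242.8 in replicate 1 (rank 583) and 182.8 in replicate 2 (rank 865). The weaker lay 847 bp downstream of the other TSS, with a signal of 176.9, rank 3095, and ranked 3571 and 2778 in replicates 1 and 2.

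The gene Med (chr3R:31611046-31615375, plus strand) is shorter and sits among close neighbours. Its better summit, with a signal of 670.0 and rank 258, lay 781 bp beyond the span of Med and 4 bp from the TSS of Mnat9, which encodes an N-acetyltransferase, next to the divergent gene CG1792. It ranked 216 in replicate 1 and 322 in replicate 2. The other, rank 4255, lay 60 bp from a TSS of CycG, a cyclin gene, and ranked 7997 in replicate 1 and 2637 in replicate 2. The promoter of Med itself held a summit of the pooled relaxed list 212 bp from its TSS. It ranked 5906, with a signal of 117.1, below the IDR list. Thus neither IDR summit counted for Med was closest to its own TSS.

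The gene shn (chr2R:11159086-11217394, plus strand) carried 13 of the 30 summits, the most of the 10 genes. Only 5 protein-coding genes, shn included, had 13 or more, and of the 132 with a span between 50 and 70 kb, 2 did. The median gene of that size had 1 IDR summit. The strongest lay 182 bp upstream of an internal TSS of shn, with a signal of 874.8 in the pool, rank 125. It had a signal of 388.5 in replicate 1 (rank 208) and 478.0 in replicate 2 (rank 91), the best rank of any of the 10 genes in replicate 2. The other 12 lay in introns, and the 13 stretched over 33585 bp with a median gap of 2866 bp.

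Of the shn sites, 6 ranked among the best 1000 of the IDR list, at ranks 125, 369, 393, 419, 687 and 944. The site of rank 419 had a signal of 534.8 in the pool, with 247.5 in replicate 1 (rank 557) and 286.1 in replicate 2 (rank 343). The site of rank 687 ranked 1055 in replicate 1 and 478 in replicate 2. At the weak end, the sites of rank 3307 and 3557 ranked 2872 and 2408 in replicate 1 but 5697 and 6846 in replicate 2. Those of rank 2158 and 2830 went the other way, with 5237 and 5428 in replicate 1 and 1404 and 1391 in replicate 2. So the nearest summits of the 6 best sites ranked 1229 or better in each replicate, while the 4 weaker sites named here differed widely.

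Of the target genes, brk had IDR summits and zen had none. Both span under 5 kb, and 34.3% of protein-coding genes of that size had at least 1. The gene brk (chrX:7307939-7311132, plus strand) had 3 IDR summits in 13194 bp of territory, all upstream of its TSS, at 775, 575 and 1953 bp. Expressed per length this was 2.27 summits per 10 kb of territory, the highest density of the 10 genes, ahead of 1.90 for shn and 1.40 for Med. That density rests on 3 summits in a short territory, and 2 of them lie 200 bp apart. Of all protein-coding genes, 1016 (7.29%) had 3 or more IDR summits. The annotation places the 3 brk summits in an intron of CG1677, which runs on the opposite strand, and the nearest TSS is that of brk. The strongest, rank 219, had a signal of 718.4 in the pool, and the second, rank 392, had 547.7.

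The summits of rank 219 and 392 at brk lie 200 bp apart, and the replicates resolved them differently. Replicate 2 had a summit at each, 8 and 7 bp away, with signals of 291.3 (rank 323) and 195.8 (rank 756). Replicate 1 had a single summit between them, 129 bp from the first and 71 bp from the second, with a signal of 445.9 and rank 143, the best of the 10 genes in replicate 1. Its peak, chrX:7307180-7307463, begins just past the first pooled summit at 7307164, so no peak among the strongest of replicate 1 covers that summit although the locus ranks higher there. The same picture held for the shn summits of rank 369 and 393, 224 bp apart. They shared 1 summit of replicate 1 (rank 314) and had 1 each in replicate 2 (rank 414 and 582). A further shn pair, of rank 1979 and 2158 and 206 bp apart, was different. Replicate 2 had a summit at each (rank 1161 and 1404). The nearest summits of replicate 1 lay 102 and 38 bp away, at rank 2817 and 5237. Across the IDR list, 275 pairs of neighbouring summits lay within 250 bp of each other. Of these, 53 had 1 summit in replicate 1 and 2 or more in replicate 2, and 75 had the reverse, so splitting of this kind occurred in both directions. The third brk site, rank 3372, was matched in both replicates, at ranks 3288 and 3820.

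The gene zen (chr3R:6752864-6754194, minus strand) had no IDR summit. The pooled relaxed list held 1 in its territory, 2159 bp from its TSS. That summit had a signal of 74.2 and ranked 11483 in the pool, 10739 in replicate 1 and 16711 in replicate 2. The nearest IDR summit, rank 4131, lay 5381 bp from the span, just beyond the limit of 5 kb, and was closest to the TSS of bcd. On the inner side of that limit, the sog summit near Chsy and the Med summit near Mnat9 are counted although they lie outside the gene span.

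**Figure D2:**
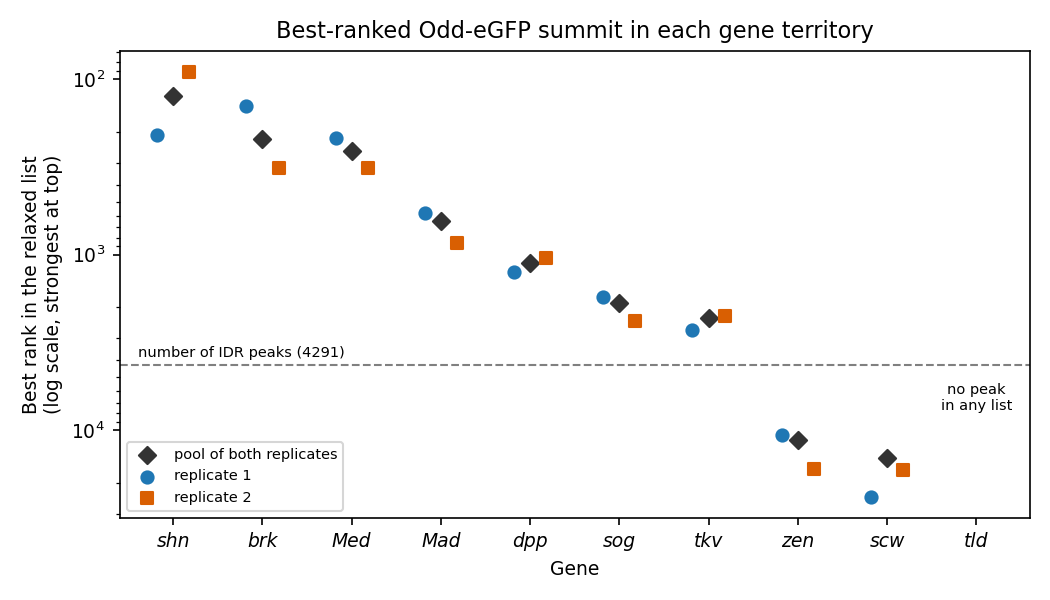
Best rank of any summit in each gene territory in the relaxed list of the pool, of replicate 1 and of replicate 2, on a log scale with the strongest at the top. The first 7 genes lie above the dashed line at 4291 in all 3 lists, zen and scw lie below it in all 3, and tld has no peak.

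The order of the genes by their best site was stable in its broad steps and not in its details. In the pool it ran shn (125), brk (219), Med (258), Mad (642), dpp (1124), sog (1882) and tkv (2306). In replicate 1 the order was brk (143), shn (208), Med (216), Mad (583), dpp (1260), sog (1737) and tkv (2692). In replicate 2 it was shn (91), Med (322), brk (323), Mad (865), dpp (1050), tkv (2253) and sog (2409). The places of shn, brk and Med thus exchanged between replicates, as did those of sog and tkv, and with 2 replicates these neighbours cannot be ordered. Mad and dpp kept the fourth and the fifth place in both. The site that placed Med in this order lay at the promoter of its neighbour Mnat9.

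The count of genes with a summit in the territory was the same in each replicate taken alone with its 4291 strongest peaks. Replicate 1 gave 7 of 10, beside 40.4% of protein-coding genes, and replicate 2 gave 7 of 10, beside 41.5%, and they were the same 7 genes. In the pooled relaxed list, 9 of 10 had a summit, beside 72.2%, and the exception was tld.

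**Figure D3:**
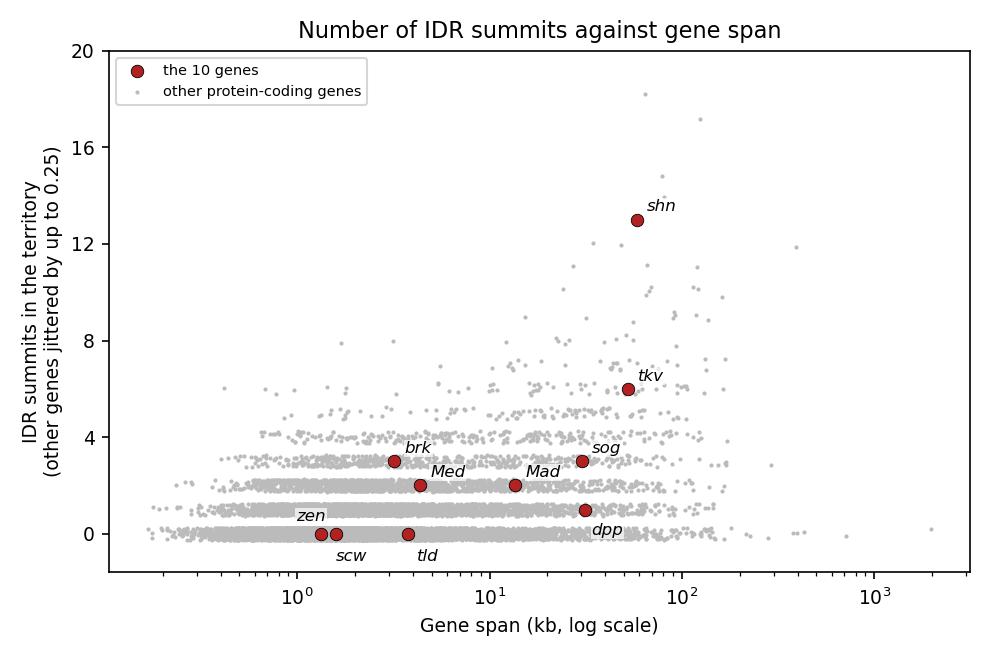
Number of IDR summits in the territory against gene span (kb, log scale) for the 10 genes (red, labelled) and the other protein-coding genes (grey). Long genes reach higher counts, and shn with 13 lies toward the upper edge for its length. The gene tkv has 6, and of the 132 genes with a span between 50 and 70 kb, 18 had 6 or more. The gene brk with 3 lies among short genes.

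The summits of these genes were mostly intronic. Of the 30, 25 (83.3%) lay in introns, 4 (13.3%) within 500 bp of an annotated TSS and 1 (3.33%) in intergenic sequence. Promoters were assigned first, and outside them none lay in an exon. Over all 4291 IDR summits, 39.1% were intronic, 45.7% lay at promoters and 12.4% were intergenic. Of the 25 intronic sites, 22 lay in an intron of the gene itself and the 3 of brk in that of CG1677. Only 2 of the 4 promoter sites, those of tkv and shn, were at a promoter of the gene in question. Since shn supplied 43.3% of the summits, the shares were also taken without it, and 13 of the remaining 17 (76.5%) were intronic. The 30 summits were taken only from gene spans and the 5 kb to each side, whereas the 4291 were taken wherever they lay. Of these 10 genes, 5 span 10 kb or more. The parts of this choice of summits and of gene length in the contrast were not tested.

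**Figure D4:**
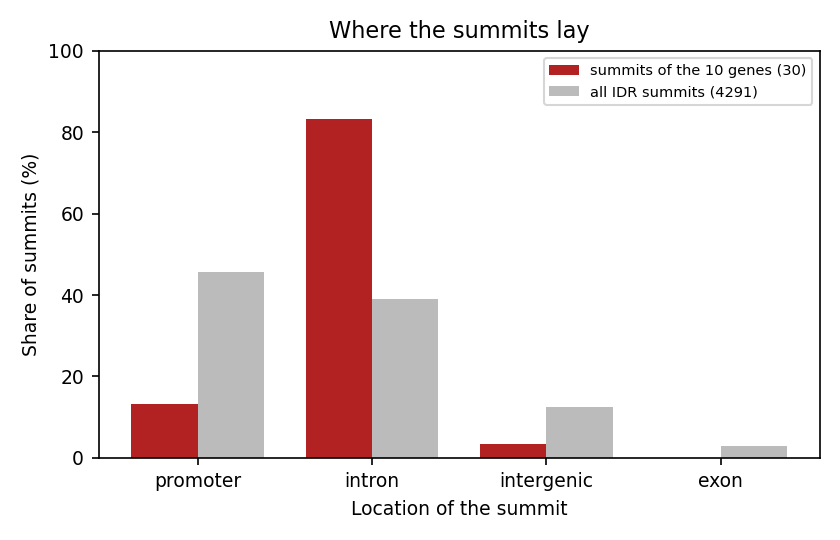
Share of summits (%) at promoters (within 500 bp of a TSS, assigned first), in introns, in intergenic sequence and in exons, for the 30 summits of the 10 genes (red, left bars) and for all 4291 IDR summits (grey, right bars). Introns hold 83.3% of the first and 39.1% of the second.

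The 10 territories together span 300 kb and held 1.00 IDR summit per 10 kb, or 0.733 without shn, beside 0.321 over the 6 chromosomes. The chromosome value includes sequence outside gene territories, so these densities are not like for like. In strength the summits resembled the list they came from. Their median signal was 215 beside 219 for all IDR peaks, 10 of 30 (33.3%) ranked among the best 1000, which hold 23.3% of all IDR peaks, and 16 of 30 lay in the weaker part of the list. Those 10 were at shn (6), brk (2), Mad (1) and Med (1).

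The share matched in both replicates was smaller for these 30 sites than over the whole list, and the difference was not tested. A summit among the strongest 4291 of each replicate lay within 100 bp of 17 of the 30 (56.7%), beside 66.6% of all IDR peaks. Replicate 2 alone matched 8 more and replicate 1 alone 3 more, and 2 were matched in neither, both at tkv (ranks 3987 and 4022). Over the whole list, 13.9% were matched in replicate 2 only and 15.8% in replicate 1 only. The 8 sites matched in replicate 2 only were at tkv (2), Med (1), shn (4) and brk (1). Among them, the brk site of rank 219 and the shn site of rank 369 each shared 1 replicate 1 summit with a close neighbour. The 3 matched in replicate 1 only were at sog (1) and shn (2).

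**Figure D5:**
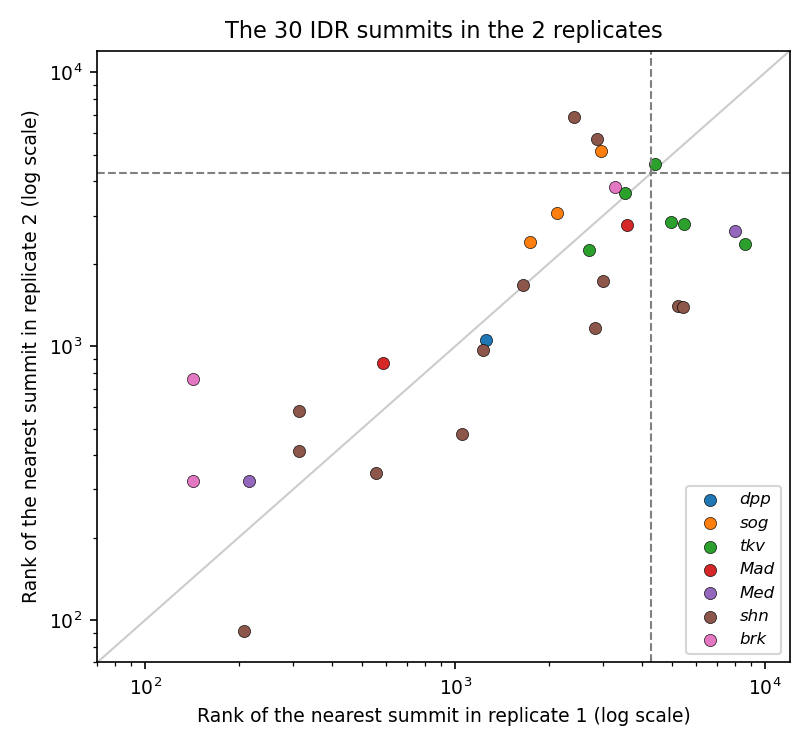
Rank of the nearest summit in replicate 1 (x axis) and replicate 2 (y axis) for each of the 30 IDR summits, both on log scales, coloured by gene; dashed lines mark rank 4291 and the solid line equal ranks. The 2 brk summits of rank 219 and 392 share 1 rank in replicate 1, and points to the right of or above the dashed lines are sites of tkv, shn, Med and sog that only 1 replicate, or for 1 tkv site neither, placed among its strongest.

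Short words known to bind factors of these pathways were counted within 100 bp of each summit, on both strands. The word ACAGTAGC, a site of the Odd family of zinc-finger proteins, was in none of the 30 windows and in 0.862% of all 4291, and its core CAGTAGC was in none and in 2.05%. The Brk word CTGGCGNC was in 3 windows, at both sites of Mad and at 1 of shn, and in 1.44% of all. The word GGCGCC was in 1 window, at Mad, and in 2.59% of all. At the stronger Mad site these words overlap, and the capitals there cover both. Within 50 bp of the summit the Brk word was left in 1 window and GGCGCC in none. Such a match describes the letters and not a bound factor.

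The Zelda core CAGGTA, a word of the factor that opens the early genome, was in 2 windows, 1 of sog and 1 of tkv, where it occurs in tandem, and in 4.38% of all. The full Zelda word CAGGTAG was in none, and in 1.26% of all. The word GAGAG was in 8 windows, at tkv, Mad and shn, and in 27.4% of all, and within 50 bp it was in 7. It was densest at the tkv promoter shown above, where 8 matches, some overlapping, fall in 155 bp upstream of the TSS. The longer GAGAGAG, which contains it, was in 5 windows and in 6.27% of all, and within 50 bp it was left in 1 window. The Dorsal word GGAAANCC was in 1 window, at shn, and in 2.21% of all, and the Twist word CACATG was in the same window of shn and in 8.04% of all. Within 50 bp the Dorsal word was still in 1 window and the Twist word in none. The Mad, Med and Shn silencer word, GNCGNC followed after 5 bases by GTCT, was in none and in 0.210% of all. The sites of dpp, Med and brk held none of these words, and their sequences above are accordingly without capitals.

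The same words were counted in windows centred 1000 bp to the left and to the right of all 4291 IDR summits. The words of Mad, Brk, Dorsal and Twist were less frequent at the summits than in either flank. The word GGCGCC was in 2.59% of summit windows, against 3.87% on the left and 3.61% on the right. The Brk word was in 1.44%, against 2.10% and 1.79%. The Dorsal word was in 2.21%, against 3.36% and 2.84%, and the Twist word in 8.04%, against 9.44% and 9.79%. The silencer word was likewise in 0.210%, against 0.326% and 0.350%. The Odd and GAGA words were more frequent at the summits than in either flank. The Odd word was in 0.862%, against 0.419% and 0.303%, and its core in 2.05%, against 1.33% and 1.65%. The word GAGAG was in 27.4%, against 23.0% and 22.7%, and the longer one in 6.27%, against 3.71% and 4.78%. The Zelda core, at 4.38%, lay between its flanks at 3.85% and 5.06%, and the full Zelda word was in 1.26%, against 1.26% and 1.35%. None of these differences was tested.

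Other genes of the pathway, in 4 lists of 62 genes, were counted in the same way. Of these, 33 had an IDR summit (53.2%), beside 39.8% of all protein-coding genes. Their median span was 9536 bp, beside 2166 bp. Of 12 further extracellular factors, 7 had one (58.3%, beside the same 39.8%). The best placed were the BMP ligand gene gbb (rank 90, at the promoter of its neighbour eIF6), cv, whose product aids BMP transport in the wing (rank 286, nearest to CG3149), and magu, a secreted feedback regulator also called pentagone (rank 469, at its promoter). In that group tsg, srw, tok, Ance and vkg had none.

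Of 10 further receptors, transducers and inhibitors, 7 had an IDR summit (70%, beside 39.8% of all protein-coding genes). The best were nej, which encodes the coactivator CBP (rank 104), and babo, an activin-type receptor gene (rank 539, at the promoter of CG33199). Next was Dad, the inhibitory Smad gene (rank 552), with 6 summits in its territory, the best of them closest to the TSS of Ns1. The type II receptor gene put, the ubiquitin ligase gene Smurf and Sara, a Smad anchor gene, had none.

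Among 16 genes regulated by Dpp in embryo or disc, 9 had an IDR summit (56.2%, beside 39.8% of all protein-coding genes), led by ush, a cofactor of GATA factors (rank 3, with 18 summits in its territory, the best of them closest to the TSS of cbt), the cardiac homeobox gene tin (rank 704, at its promoter) and the GATA gene srp (rank 1819, nearest to its relative GATAe). Among 24 genes of the Dorsal gradient and of ventral or lateral fates, 10 had one, which at 41.7% is near the 39.8% of all protein-coding genes. They were led by the midline gene sim (rank 363, in its intron) and the Egfr ligand gene vn (rank 657, nearest to mad2). The kinase gene pll followed (rank 1016, nearest to CG18766). Replicate 1 alone gave 32 of the 62 and replicate 2 alone 37.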

How the data were processed

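Odd-GFP was mapped by ChIP-seq in 2 libraries of whole embryos, numbered as biological replicates 1 and 2 in the labels. The authors deposited peak lists in which each peak has a signal value, a caller's score used here only to rank peaks within a list, and an offset that gives the summit. Per the text records deposited with the libraries and the labels, the lists are on dm6 and dm3, and only those on dm6 were used, namely the IDR list, the pooled relaxed list and a relaxed list for each replicate. For the aligner, the peak caller and the thresholds, details were not given in the sources used here, and the control library was not analysed here. Peak lists hold no reads, so depth is unknown and no interval can be given.

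Summits were assigned to protein-coding genes of Ensembl release 115, with the span plus 5 kb as territory, and promoters were taken as 500 bp around a TSS. Peaks were matched between lists within 100 bp, using the strongest 4291 of each replicate. Either strand was searched for the words, 100 bp to each side of a summit, in the RefSeq Release 6 genome. With 1 group no test was made. Calculations used Python 3.11.15, pandas 2.3.3 and numpy 2.4.6, and the scripts were tested on simulated data. Alternatives changed the territory, the assignment, the list, the matching distance, the promoter width and the word window.

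The 10 genes, the 4 lists of other pathway genes and the words were chosen with earlier results of these data known. The genes named are the 10 members, the nearest protein-coding gene of each summit described, the 3 best ranked genes of each list, and the genes of a list without a summit when fewer than 6. Neighbours such as CG1792 and CG1677 were named after their positions were seen.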

Additional observations from a re-analysis of the deposited data

How the results depend on the processing

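The count of 7 of the 10 genes with an IDR summit moved between 5 (gene span alone, or nearest TSS) and 9 (pooled relaxed list), and replicate 1 or replicate 2 alone gave 7. The 30 summits became 14 with the stronger part of the IDR list and 156 with the pooled relaxed list, and 17 without shn, which was left out as an alternative chosen after seeing the data. Each replicate alone gave between 27 and 31 summits. The 33 of 62 other pathway genes became 18 with the gene span alone, 22 by the nearest TSS and 55 with the pooled relaxed list. With 1 replicate they were between 32 and 37. Of all protein-coding genes, 16.6% had a summit by the nearest TSS and 72.2% in the pooled relaxed list. For the gene span alone that share was not computed. The 17 summits matched in both replicates became 26 with the whole relaxed lists and between 20 and 25 when 1 replicate was required, and the 4 promoter summits became 8 with promoters of 1000 bp and 3 without shn. The cause of these shifts was not tested. Of 22 word counts under another window, 18 kept their value or nearly so and 4 fell within 50 bp, namely the Brk word (3 to 1), GGCGCC (1 to 0), the longer GAGA word (5 to 1) and the Twist word (1 to 0). No paired analysis was possible because there is 1 group and no second condition. Depth is unknown from peak lists, so a gene without a summit, such as tld, had no called peak, and weaker binding below the lists was not measured.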
